A study of Mus musculus with 6 samples.

Results

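Expression of 10 genes of fibroblast growth factor (FGF) signalling was examined in RNA-seq libraries of mouse tailbud. They were the ligands Fgf3, Fgf4, Fgf8, Fgf17 and Fgf18, the receptor Fgfr1, and the response genes Dusp6, Spry2, Spry4 and Etv4. The genes were chosen by symbol, and all 10 were found among the 35591 rows of the table and had enough reads to be tested. The libraries came from embryos at E8.5 with 8 somites. The 3 WT embryos were Smchd1 +/+ and the 3 MommeD43 embryos were homozygous for MommeD43, a missense allele of the chromatin protein SMCHD1 that was induced by chemical mutagenesis. All embryos were FVB/NJ, and no further allele or treatment is given. Each library was a single embryo, with replicate 1 male and replicates 2 and 3 female in both groups. Both males came from 1 mother and the 4 females from 4 others. The source label names NSCs, and the tissue label and titles name tailbud with presomitic mesoderm. The tailbud genes T, Tbx6 and Msgn1 had means of 137.8, 39.1 and 98.6 RPKM over the 6 libraries, and the neural tube list of 7 genes summed to between 3.46 and 6.61 RPKM. RPKM is reads per kilobase of exon, scaled to the reads of the library, so levels are given per length. The length is that of all annotated exons merged. A gene whose transcripts lack some of these exons gets too low a level, so comparisons between genes are approximate.

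FGF ligands are secreted proteins that bind receptor tyrosine kinases together with heparan sulphate chains on the cell surface. The activated receptor signals through RAS to the ERK kinases. In the tailbud, FGF signalling is strongest at the posterior end, where it keeps presomitic mesoderm immature and helps to set the position at which the next somite forms. Etv4 encodes an ETS transcription factor induced by the pathway, Dusp6 encodes a phosphatase that removes the activating phosphate groups from ERK, and Spry2 and Spry4 encode Sprouty inhibitors of receptor signalling. Response genes of this kind are used as readouts of the pathway, and Dusp6, Spry2 and Spry4 also feed back on it.

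Sequences upstream of 3 members are shown, chosen by their spread over the 6 libraries. Fgf4 varied most, Dusp6 moved against the ligands in WT replicate 1, and Spry2 varied least. Without WT replicate 1, Fgf18 varied most and Fgfr1 least. Whether sequence bears on spread was not tested. Of the 10 members, 5 matched the RefSeq promoter table, and the 3 windows shown, of 250 bases before the RefSeq start (GRCm38.p6), overlap no annotated exon. They lie at chr7:144861136-144861385 on the plus strand for Fgf4, chr10:99262981-99263230 on the plus strand for Dusp6, and chr14:105896820-105897069 on the minus strand for Spry2, and that of Fgf4 is inside the span of the gene in the annotation used for the table (144847367 to 144865243). Each is written 5′ to 3′ on the strand of its gene. Capitals mark CGGAA on either strand, a longer form of the ETS core GGAA, and this motif was added after the sequences had been seen. The core GGAA itself, which the Spry2 window also holds, was not marked or counted.
Fgf4: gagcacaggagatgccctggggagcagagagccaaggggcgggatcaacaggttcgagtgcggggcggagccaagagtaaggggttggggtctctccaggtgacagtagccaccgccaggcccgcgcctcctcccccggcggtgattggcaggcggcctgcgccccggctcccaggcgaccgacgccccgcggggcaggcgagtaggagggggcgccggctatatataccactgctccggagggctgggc
Dusp6: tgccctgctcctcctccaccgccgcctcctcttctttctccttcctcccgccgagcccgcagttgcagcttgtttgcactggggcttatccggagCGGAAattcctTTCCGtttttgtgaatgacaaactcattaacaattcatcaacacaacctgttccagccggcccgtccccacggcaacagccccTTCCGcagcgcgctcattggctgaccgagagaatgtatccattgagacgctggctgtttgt
Spry2: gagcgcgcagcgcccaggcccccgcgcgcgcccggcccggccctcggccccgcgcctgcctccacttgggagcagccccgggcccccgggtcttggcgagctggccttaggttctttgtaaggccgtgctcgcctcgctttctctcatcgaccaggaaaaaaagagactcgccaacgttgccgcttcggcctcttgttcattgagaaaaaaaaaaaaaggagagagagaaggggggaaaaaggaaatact
The Dusp6 window held CGGAA 3 times, with the leftmost base 155, 144 and 61 bases before the start. It was the only one of the 5 member windows with this motif, which 25.2% of 32851 promoter windows hold. The still longer form CCGGAA, which overlaps it, was in 0 of the 5 member windows and in 12.0% of all windows. The T-box core GGTGTGA and the TCF/LEF motif CTTTGAT, neither of which overlaps these ETS motifs in its letters, were in 0 of the 5 and in 3.33% and 3.21% of all windows. These matches describe letters in a window and are not measurements of binding.

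Library totals ranged from 10957881 to 47297660 reads, a ratio of 4.32. No pair of libraries was as alike as repeated sequencing would make them: the mean chi-square per gene between their reads was 4.71 or more, where counting error alone gives a value near 1. WT replicate 1, the male, stood apart from the other WT libraries (chi-square of 21.8 and 16.7, against 4.71 between the WT females). The value also rises with depth, and WT replicate 1 had 36615863 reads against 23622617 and 16621710 in WT replicates 2 and 3. It was not remote from every library: its chi-square with MommeD43 replicate 3 was 7.84, against 9.49 for WT replicate 2 with that library. It had the lowest sum of primitive erythroid markers (8.94 RPKM over 8 genes, against 22.8 to 485.8 RPKM in the other 5 libraries) and the highest sum of tailbud markers (1225 RPKM over 14 genes, against 905.5 to 1150 RPKM). Genotype results for the members and the wider lists are therefore given with and without it. Smchd1 carries a missense change, so its transcript level cannot check the genotype labels.

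The members spanned more than an order of magnitude in level. Etv4 was the highest in both groups, averaging 52.8 ± 21.5 RPKM for WT and 50.5 ± 7.11 RPKM for MommeD43 embryos (mean ± SD, n = 3 each, as for all means below). The ligand Fgf17 followed at 40.2 ± 6.75 and 40.4 ± 7.01 RPKM, then Dusp6 at 38.5 ± 8.06 and 39.0 ± 3.18 RPKM, and Fgf8 at 35.1 ± 9.26 and 34.3 ± 3.34 RPKM. The ranges of neighbours in this order overlapped in both groups down to Fgf8, and the order of Etv4, Fgf17 and Dusp6 changed between libraries. Within every library, though, Etv4 and Fgf17 were each above Fgf8. In MommeD43 embryos Fgf8 was clear of the genes below it. In WT embryos its range of 28.3 to 45.6 RPKM overlapped that of Fgf3 (15.6 to 29.5 RPKM), although Fgf8 was above Fgf3 within each library. Fgf3, Spry2, Spry4 and Fgfr1 formed a middle group with means of 14.9 to 22.4 RPKM. Fgf4 and Fgf18 were the lowest, at 4.02 ± 2.71 and 1.41 ± 0.642 RPKM in WT embryos and 3.39 ± 0.629 and 1.73 ± 0.268 RPKM in MommeD43 embryos. Fgfr1 did not overlap Fgf4 in either group. The range of Fgf4 overlapped that of Fgf18 in WT and not in MommeD43 embryos, and Fgf4 was above Fgf18 within every library.

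**Figure D1:**
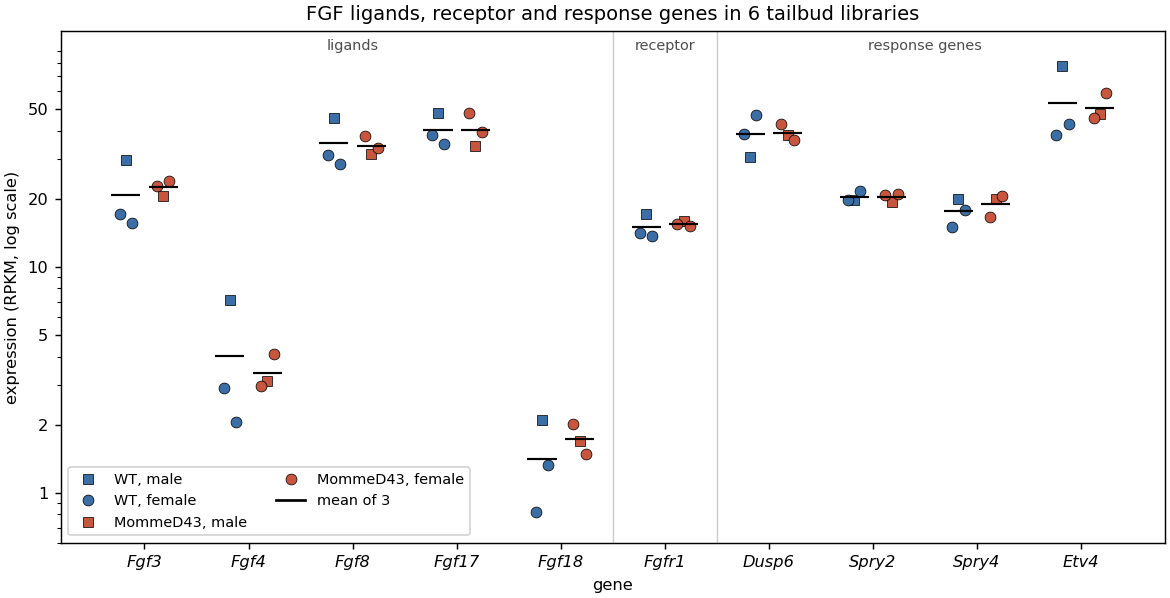
Expression of the 10 genes in each library, with RPKM on a log axis, squares for males, circles for females and a black line for the mean of 3 libraries. The WT male is the highest point for 6 genes and the lowest for Dusp6, and the WT and MommeD43 points overlap for each of the 10.

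Among the ligands, Fgf8 and Fgf17 made up most of the FGF ligand transcripts per length. Together they were 70.7% to 77.0% of the summed RPKM of the 5 ligands, and the share of Fgf8 alone lay between 32.6% and 34.7% in all 6 libraries. The share of Fgf4 was 5.39% in WT replicate 1 and between 2.501% and 4.03% in the other libraries. The sum of the 5 ligands was 132.1, 90.2 and 82.1 RPKM in WT replicates 1, 2 and 3 and 91.0, 113.6 and 102.1 RPKM in MommeD43 replicates 1, 2 and 3. WT replicate 1 was the highest and WT replicate 3 the lowest, so the groups overlapped.

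Whether the MommeD43 allele changes the level of these genes was the comparison the design allows. None of the 10 members passed an adjusted p of 0.05 (limma across 13617 autosomal genes, Benjamini-Hochberg), and 0 had an unadjusted p under 0.05, the smallest being 0.259 for Fgf18. Over all genes tested the same fit called 0 (0%) at the adjusted threshold and 327 (2.4%) at an unadjusted p under 0.05. With voom on recovered reads 0 members were called at either threshold, and 0 genes of all, with 425 at an unadjusted p under 0.05. The groups overlapped for all 10 members, against 7.08% of all genes in which they did not (3.53% higher and 3.55% lower in MommeD43). The median log2 fold change (MommeD43 against WT) of the members was 0.02, beside 0.00 over all genes. In dissected tissue, fewer cells that express a gene and less RNA per cell cannot be told apart.

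Fgf8, the ligand expressed in a gradient from the tailbud, was at 45.6, 31.3 and 28.3 RPKM in WT replicates 1, 2 and 3. It was at 31.6, 38.0 and 33.3 RPKM in MommeD43 replicates 1, 2 and 3. All MommeD43 values lay inside the WT range. The log2 fold change was -0.01 ± 0.16 (SE), with a 95% interval of -0.38 to 0.37, or 0.768-fold to 1.29-fold. Fgf8 lies on chromosome 19 from 45736798 to 45742915 (GRCm38), and its exons overlap no other gene.

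Fgf4, a ligand that acts with Fgf8 in the presomitic mesoderm, was at 7.12, 2.902 and 2.05 RPKM in WT replicates 1, 2 and 3. It was at 3.11, 2.95 and 4.11 RPKM in MommeD43 replicates 1, 2 and 3. The WT male was 2.87 times the mean of the WT females, and its interval of 6.65 to 7.62 RPKM (exact 95%, counting error only) was clear of the other 5 libraries. The log2 fold change was -0.06 ± 0.40 (interval -0.97 to 0.86), which leaves changes of nearly 2-fold in either direction unresolved, and it was 0.46 without WT replicate 1.

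Fgf3, whose RefSeq start lies 22774 bases upstream of that of Fgf4 on chromosome 7, measured 29.5, 17.02 and 15.6 RPKM in WT replicates 1, 2 and 3, beside 20.6, 22.7 and 23.9 RPKM in the MommeD43 replicates. The MommeD43 libraries lay between the WT male and the WT females. The log2 fold change was 0.17 ± 0.21 (interval -0.32 to 0.66) and rose to 0.46 without WT replicate 1. Fgf17, a ligand of the Fgf8 subfamily, was at 47.8, 38.2 and 34.7 RPKM in WT replicates 1, 2 and 3, beside 34.0, 47.9 and 39.3 RPKM in the MommeD43 replicates. Unlike the other ligands it was highest in MommeD43 replicate 2 and lowest in the MommeD43 male. Its log2 fold change was 0.01 ± 0.15 (interval -0.33 to 0.34).

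Fgf18, the third ligand of that subfamily, had the fewest reads of the members. Read numbers were 91, 23 and 26 for WT replicates 1, 2 and 3, which correspond to levels of 2.09, 0.820 and 1.32 RPKM. Those of MommeD43 replicates 1, 2 and 3 were 22, 113 and 23, with levels of 1.69, 2.01 and 1.48 RPKM. The exact 95% intervals of the shallowest libraries were wide, for example 1.06 to 2.56 RPKM in MommeD43 replicate 1. Its log2 fold change of 0.39 ± 0.32 was the largest of the 10 in size, and its interval of -0.34 to 1.11 (up to 2.17-fold higher) was the only one that reached past 2-fold. Leaving out WT replicate 1 gave 0.72, and the lowest value with any 1 library left out was 0.05, so single libraries set it.

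Fgfr1, the FGF receptor of the presomitic mesoderm, had an SD of log2 RPKM within groups of 0.13, at percentile 45.6 of all genes tested. It was at 17.1, 14.05 and 13.7 RPKM in WT replicates 1, 2 and 3, and MommeD43 replicates 1, 2 and 3 had 15.9, 15.4 and 15.2 RPKM. The log2 fold change was 0.06 ± 0.09 (interval -0.15 to 0.27), and 1.66% of its exon bases are shared with a gene on the other strand.

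Among the response genes, Etv4 and Dusp6 differed in how they varied. Etv4 measured 77.4, 38.2 and 42.6 RPKM in WT replicates 1, 2 and 3, beside 47.2, 45.6 and 58.6 RPKM in the MommeD43 replicates. Dusp6 measured 30.5, 38.4 and 46.7 RPKM in WT replicates 1, 2 and 3, beside 38.1, 42.6 and 36.5 RPKM in the MommeD43 replicates. WT replicate 1 was thus the highest library for Etv4 and the lowest for Dusp6, and the ratio of Dusp6 to Etv4 in it was 0.394, against 0.622 to 1.09 in the other libraries. The log2 fold changes were 0.00 ± 0.24 for Etv4 and 0.04 ± 0.14 for Dusp6. Spry2 was the steadiest member, with 19.7, 19.7 and 21.6 RPKM in WT replicates 1, 2 and 3, beside 19.3, 20.8 and 21.01 RPKM in the MommeD43 replicates. The highest Spry2 value was 1.12 times the lowest, and its interval of 0.903-fold to 1.11-fold was the narrowest of the 10. Spry4 measured 19.9, 15.03 and 17.8 RPKM in WT replicates 1, 2 and 3, beside 19.8, 16.5 and 20.6 RPKM in the MommeD43 replicates, with a log2 fold change of 0.11 ± 0.12. Both males were thus near 20 RPKM for Spry4.

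**Figure D2:**
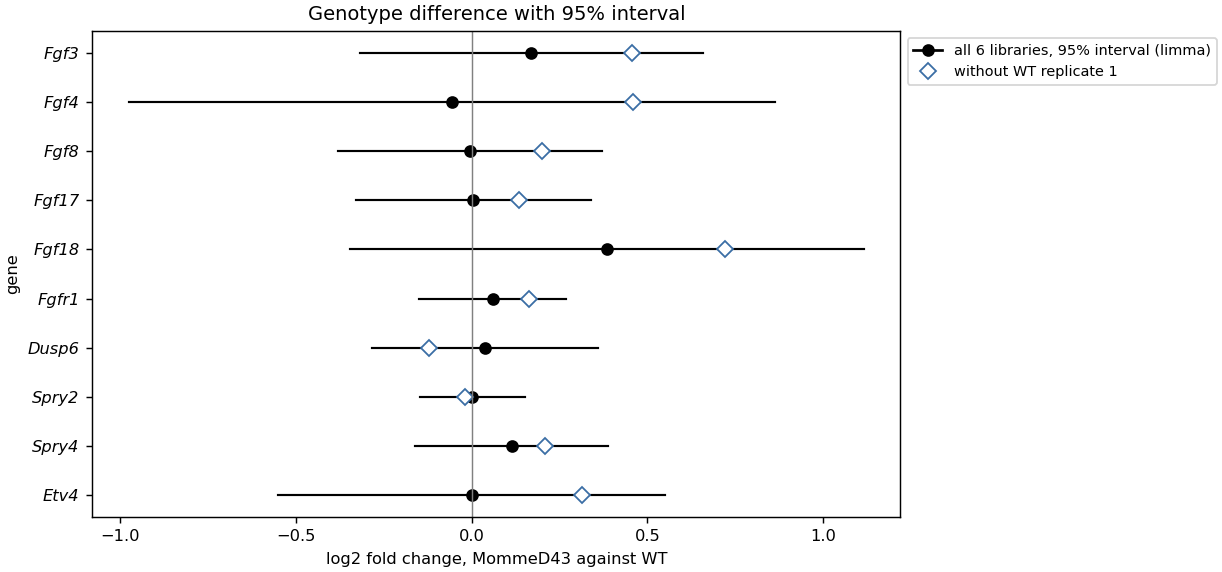
Log2 fold change of each gene, MommeD43 against WT, as black points with their 95% intervals (limma, 6 libraries) and as open diamonds without WT replicate 1. All 10 intervals include 0, Spry2 has the narrowest, and leaving out WT replicate 1 moves Fgf4 from -0.06 to 0.46.

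The spread between embryos within a group differed widely among the members. The SD of log2 RPKM within groups was 0.68 for Fgf4, which is at percentile 94.3 of the 13617 genes, and 0.07 for Spry2, at percentile 17.0. Etv4 and Fgf3 were at 0.41 and 0.36, Fgf8 and Fgf17 at 0.27 and 0.24, and Dusp6 at 0.23. Counting error accounts for little of this in most members: it gives an SD of 0.11 for Fgf4, 0.03 for Etv4 and 0.05 for Fgf8. For Fgf18 counting error alone gives an SD of 0.26 beside the 0.50 measured, and for Spry2 0.05 beside 0.07. These are SDs, which do not add, so their ratio is not a share. These SDs rest in part on WT replicate 1. Without it the SD was 0.29 for Fgf4, 0.17 for Etv4, 0.10 for Fgf3 and 0.13 for Fgf8, while Fgf18, at 0.33, varied most and Fgfr1, at 0.03, varied least.

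WT replicate 1 was far from the other libraries for many members. It was the highest of the 6 for 6 members (Fgf3, Fgf4, Fgf8, Fgf18, Fgfr1 and Etv4), and 18.5% of all genes were highest in it. The median deviation of the 10 members from their gene means was 0.34 (log2) in WT replicate 1, -0.18 and -0.19 in WT replicates 2 and 3, and -0.06, 0.07 and 0.02 in MommeD43 replicates 1, 2 and 3. The same median over all genes was at most 0.01 in size in each library. Without WT replicate 1, 4 members (Fgf3, Fgf18, Fgfr1 and Etv4) had an unadjusted p under 0.05, all higher in MommeD43, against 6.93% of all genes, and 0 passed the adjusted threshold (smallest adjusted p = 0.695, limma). All 4 are among the 6 members highest in WT replicate 1, so leaving it out lowers their WT mean by construction. The 6.93% covers genes that were not chosen in that way. The median of the members without WT replicate 1 was 0.20. The log2 fold changes without it were 0.20 for Fgf8, 0.14 for Fgf17, 0.16 for Fgfr1 and 0.31 for Etv4. They were -0.12 for Dusp6, -0.02 for Spry2 and 0.21 for Spry4.

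**Figure D3:**
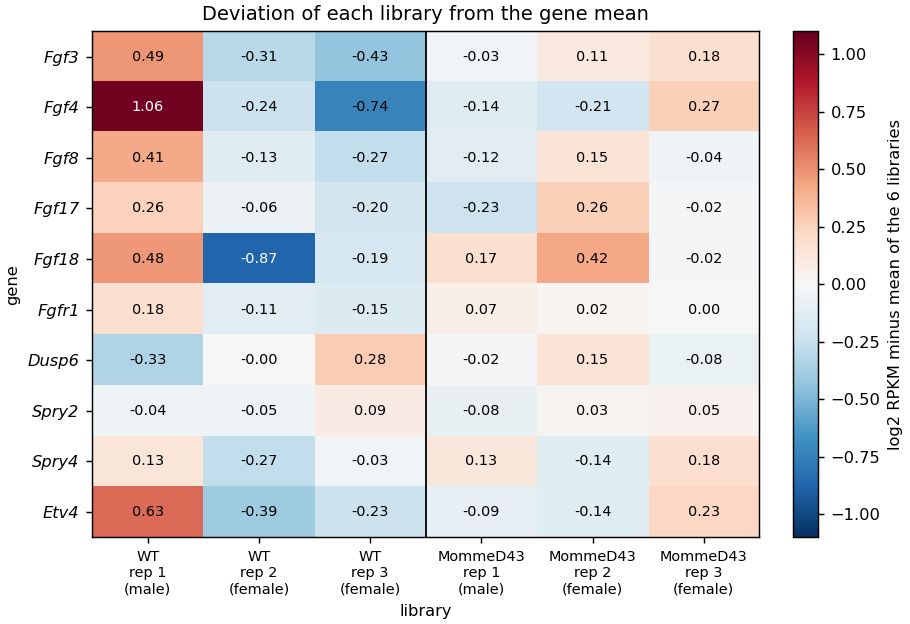
Deviation of each library from the mean of the gene over the 6 libraries, in log2 RPKM, with genes in rows, libraries in columns, red above and blue below the mean. WT replicate 1 is above the mean for the 5 ligands, Fgfr1, Spry4 and Etv4 and below it for Dusp6 and Spry2.

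The genotype difference was then compared between the male pair and the females, since the groups are balanced for sex. The sign of the fold change was opposite between the sexes for all 10 members, as for 60% of all genes. The fold change over all libraries averages the male pair and the females, so opposite signs in part restate fold changes near 0. In 9 members the MommeD43 male was below the WT male, and the MommeD43 females averaged above the WT females (31.7% of all genes). Among the 9, Spry2 was near 0 in both (-0.03 in the male pair and 0.02 in females) and Spry4 in the male pair (-0.01). Dusp6 went the other way. The log2 fold change of Fgf3 was -0.52 in the male pair and 0.51 in females, a difference of -1.03 ± 0.13 (SE) with an adjusted p of 0.0452 (limma with a mean for each sex and genotype). Each genotype has 1 male, so the spread in this fit comes from the 4 females alone, on 2 residual degrees of freedom, and no spread between males enters the p-values. The contrast sets the male pair, which includes WT replicate 1, against the females and cannot show a difference between the sexes. Fgf3 was the 1 member called, and 37 of all genes (0.272%) were. The call was lost without WT replicate 2 (adjusted p = 0.185, limma) or WT replicate 3 (adjusted p = 0.224, limma), in fits with fewer samples, while the difference stayed at -1.09 and -0.97.

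Differences in the same direction were -1.71 ± 0.39 for Fgf4, -1.07 ± 0.21 for Etv4, -0.79 ± 0.15 for Fgf8 and -0.74 ± 0.18 for Fgf17. With Fgf3 these 5 members had an unadjusted p under 0.05, against 10.8% of all genes, and the 4 had adjusted p-values of 0.129 to 0.219 (limma). Dusp6 was at 0.42 ± 0.19 and Spry2 at -0.05 ± 0.12. Sex, the shared mother of the males and a single dissection cannot be told apart.

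In the females alone (2 against 2), both MommeD43 females were above both WT females for 7 members, the 5 ligands, Fgfr1 and Etv4. This order was found in 21.8% of all genes, and the reverse, which 0 members had, in 20.2%. An unadjusted p under 0.05 was reached by 5 members, Fgf3, Fgf8, Fgf17, Fgf18 and Etv4 (8.72% of all genes), and an adjusted p of 0.05 by 0 members and by 10 genes in all (0.0734%, limma). The smallest adjusted p of a member was 0.118, for Fgf3 (limma), at a log2 fold change of 0.51. The 2 WT females are also the only WT libraries in the fit without WT replicate 1, so these results are not separate observations.

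**Figure D4:**
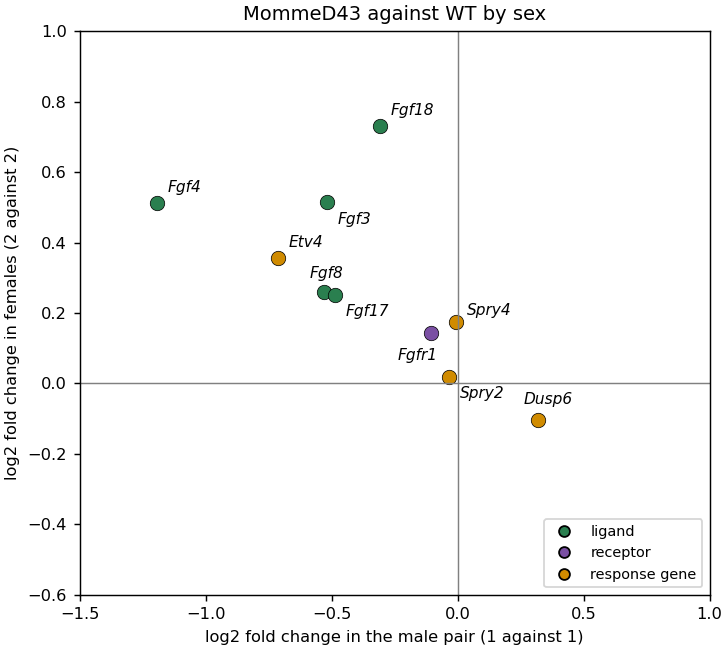
Log2 fold change, MommeD43 against WT, in the male pair (horizontal axis) and in the females (vertical axis), with 1 point per gene coloured by role. The 5 ligands, Fgfr1 and Etv4 lie at the upper left, Spry2 lies near the origin, Spry4 lies next to the vertical axis and Dusp6 lies in the lower right.

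Marker lists of the tailbud and of other tissues also differed in the contrast of the male pair with the females. Of 13 tailbud markers tested, 12 had a negative male minus female difference, with a median of -0.72, and 9 were highest in WT replicate 1. The yolk sac and visceral endoderm markers went the other way, with 10 of 10 positive and a median of 4.42, as did 6 of 6 primitive erythroid markers (median 3.23) and 7 of 7 endothelial markers (median 1.06). Medians were also positive for notochord and node (0.98), neural tube (0.88), somite (0.46), hindgut (0.30) and lateral mesoderm (0.09). They were negative, as for the tailbud, for cardiac muscle (-0.27) and for trophoblast and decidua (-0.51). The sum of the 10 yolk sac markers was 167.0, 277.0 and 314.3 RPKM in WT replicates 1, 2 and 3 and 489.3, 56.4 and 41.2 RPKM in MommeD43 replicates 1, 2 and 3. The 3 libraries with the highest ligand sums were thus the 3 with the lowest yolk sac sums. Among these 3, however, WT replicate 1 had the highest sum of both. Among the remaining libraries MommeD43 replicate 1 had the highest sum of both, so the sums did not run opposite throughout. The primitive erythroid sums did not split the libraries by ligand sum. They were 8.94, 485.8 and 205.2 RPKM in WT replicates 1, 2 and 3, beside 25.5, 220.0 and 22.8 RPKM in the MommeD43 replicates. MommeD43 replicate 2 had the second highest sum of both ligands and erythroid markers. No gene of the tailbud, yolk sac, erythroid and endothelial lists was without a read in all libraries. The part of other tissue in the FGF values was not tested. The lists for somite (9.97 to 15.1 RPKM), notochord and node (10.3 to 21.1 RPKM), cardiac muscle (3.37 to 5.72 RPKM) and trophoblast and decidua (0.460 to 21.7 RPKM) had low sums, and Uncx, a somite gene, had 0 reads. Hindgut endoderm markers summed to 301.9 to 423.3 RPKM and lateral mesoderm and allantois markers to 161.2 to 190.4 RPKM, and both sums were lowest in WT replicate 1.

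**Figure D5:**
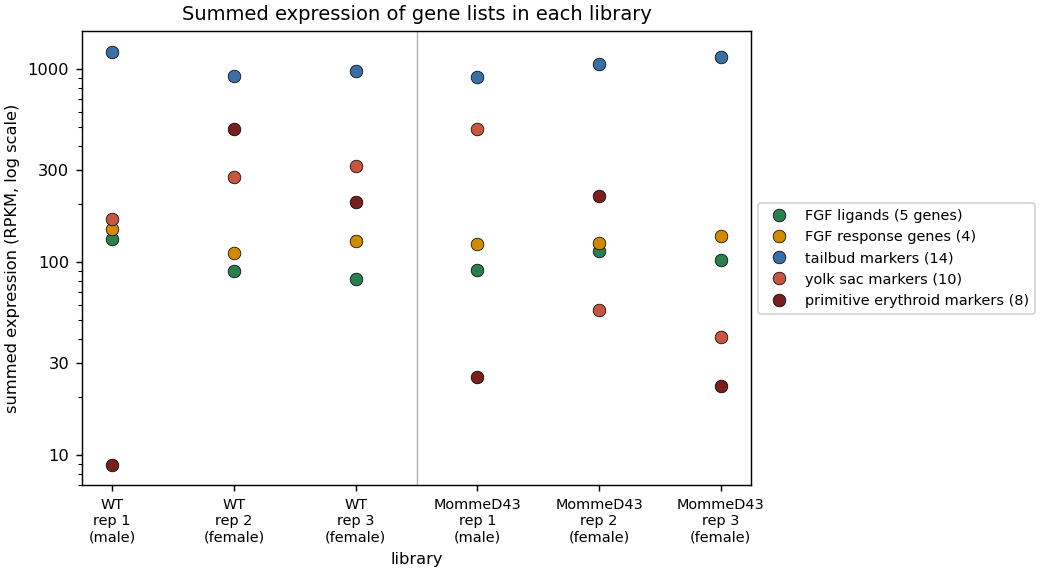
Summed RPKM (log axis) in each library of the 5 ligands, the 4 response genes, and the tailbud, yolk sac and primitive erythroid marker lists. The ligand sum is highest in WT replicate 1 (132.1 RPKM), where the erythroid sum is lowest (8.94 RPKM), and the yolk sac sum spans 41.2 to 489.3 RPKM.

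The genes whose profile over the 6 libraries was closest to that of Fgf8 were found by the root mean square difference of log2 RPKM after centring each gene on its mean. They were Chrna7, a nicotinic receptor subunit (0.03), Tbx6, a T-box factor of presomitic mesoderm (0.04), Castor1, an arginine sensor (0.05), and Zfp579 and Ankrd23 (0.07 each). Counting error gives an SD of 0.14 for Chrna7, 0.11 for Castor1, 0.13 for Zfp579 and 0.16 for Ankrd23. These exceed their distances, so the reads do not resolve the rank of these genes. For Tbx6 counting error gives 0.04, about its distance. Of the other members, Fgf17 was closest, at 0.10 and rank 35 of the tested genes, followed by Fgf3 at 0.14 and rank 252 and Fgfr1 at 0.14 and rank 294. Dusp6 was the farthest, at 0.39. Fgf4 was also far, at 0.38, in a measure that counts the size of deviations as well as their direction. Its deviation in WT replicate 1 was 1.06, against 0.41 for Fgf8. The deviations of Fgf4 and Fgf8 had the same sign in each WT library and MommeD43 replicate 1, and opposite signs in MommeD43 replicates 2 and 3.

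The rest of the pathway was described from 5 lists with 81 genes, of which 62 were tested. None passed an adjusted p of 0.05 (limma), and 0 had an unadjusted p under 0.05 (voom on recovered reads gave 0 and 2). The median log2 fold change was -0.01, with 26 genes above and 36 below 0. Without WT replicate 1 the median was -0.03, and 3 of the 62 had an unadjusted p under 0.05 (6.93% of all genes), each lower in MommeD43 with an adjusted p of 0.695 (limma). They included Dusp7, an ERK phosphatase gene (-0.21 ± 0.08), and Spred1, a RAS pathway inhibitor gene (-0.19 ± 0.06), named after their values were seen. Of the other ligands, 7 of 17 were tested, with Fgf15 (9.15 RPKM over all libraries) and Fgf10 (3.37 RPKM) the highest. Fgf15 had a log2 fold change of -0.05 ± 0.22 and Fgf10 of 0.16 ± 0.17. Of the other receptors and co-receptors, 7 of 8 were tested, led by Fgfrl1, a receptor without a kinase domain (16.8 RPKM, 0.10 ± 0.10), and Flrt3, a membrane protein that binds FGF receptors (6.53 RPKM, 0.18 ± 0.19).

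Of the adaptors and the RAS-ERK cascade, 18 of 19 were tested, and their log2 fold changes lay between -0.15 and 0.09. Mapk3, which encodes an ERK kinase, was at 56.4 RPKM with a log2 fold change of 0.03 ± 0.06. Of the other response genes and inhibitors, 17 of 20 were tested, with Ccnd1, which encodes cyclin D1, at 90.6 RPKM (0.01 ± 0.05) and the ERK phosphatase gene Dusp4 at 88.9 RPKM (0.08 ± 0.10). Of the heparan sulphate genes, 13 of 17 were tested, led by the syndecan gene Sdc1 at 44.2 RPKM (0.08 ± 0.06) and Sulf2, which encodes a sulphatase that edits the chains, at 32.5 RPKM (0.13 ± 0.06).

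Groups did not overlap for 4 of the 62 genes, named here after their values were seen, against 7.08% of all genes. Sulf2 and Ext2, a subunit of the heparan sulphate polymerase, were higher in MommeD43, Ext2 by 0.13 ± 0.07. Spred3, a RAS pathway inhibitor, averaged 6.46 ± 0.802 RPKM for WT and 5.48 ± 0.3996 RPKM for MommeD43 (log2 fold change -0.23 ± 0.11). Fgf14, an intracellular member of the FGF family, was at -0.89 ± 0.40 on 5 to 35 reads per library. Each of the 4 had an adjusted p of 0.999 (limma). For the difference between the male pair and females, 7 of the 62 had an unadjusted p under 0.05 (10.8% of all genes) and 1, the early response gene Ier3, passed the adjusted threshold. Ier3 was also named afterwards and rests on 25 to 84 reads per library.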

How the data were processed

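Tailbud RNA of 6 embryos was sequenced as polyA libraries. Per the submitters' processing notes and the study's methods, the authors trimmed reads with Trim Galore 0.4.4, mapped them with HISAT2 2.0.5 to GRCm38.p6 and quantified genes in SeqMonk. The deposited values are log2 RPKM per library. The authors' columns of group means were not used. Rows were matched by identifier to GENCODE M21 (35555 of 35591), whose merged exon lengths gave back whole reads: genes without a read sit at 0.9 read, and 97.4% of 35881 values under 50 reads were whole within 0.02.

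Autosomal genes with, in at least 3 libraries, the CPM of 10 reads in a library of median size, and 15 reads in all, were tested (13617 genes). The deposited log2 values were fitted with limma 3.58.1 in R 4.3.3, using a trend of variance on mean and no pseudocount, two-sided, with Benjamini-Hochberg adjustment. Intervals for reads are exact binomial. The code was checked on simulated data. Other summaries were made in Python 3.11.15. p-values measure the spread between single embryos. The main fit did not pair libraries by replicate number, although the paper describes the embryos as somite-paired. The members and lists were chosen with earlier results of these data known. Named genes were the members, the 2 highest genes of each wider list and any of them with an unadjusted p under 0.05, the 5 genes closest to Fgf8, and T, Tbx6 and Msgn1, and 1 gene that this rule names is not reported here. X-linked genes (Fgf13, Fgf16, Araf, Dusp9, Hs6st2, Gpc3 and Gpc4) were outside the fit, and Spry3 was not analysed here. Alternatives were other scalings, pseudocounts, filters, covariates, the replicate block, subsets of libraries and voom on recovered reads.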

Additional observations from a re-analysis of the deposited data

Results flagged for a closer look

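For 4 genes named in the text the genotype difference in the male pair was set against that in the females, and the contrast had an adjusted p under 0.05 (limma, over 13617 genes). With 1 male per genotype the spread comes from the females alone, so it does not test whether males and females differ. The male minus female difference in log2 fold change was -1.03 for Fgf3 (adjusted p = 0.0452), 2.75 for Ier3 (adjusted p = 0.0398), -0.91 for T (adjusted p = 0.0275) and -1.06 for Msgn1 (adjusted p = 0.0263). Fgf3, T and Msgn1 were lower in the MommeD43 male than in the WT male and higher in the MommeD43 females, and Ier3 went the other way. Ier3 was at 0.7002 RPKM in the WT male and 3.15 RPKM in the MommeD43 male. Each of the 4 calls was lost without WT replicate 2 or WT replicate 3, in fits with 1 library fewer, and none changed sign. That of Ier3 was also lost with voom (adjusted p = 0.0615). T and Msgn1 are themselves tailbud genes, so tailbud markers give no separate observation for them. The yolk sac markers went the opposite way to Fgf3, T and Msgn1, and the part of other tissue was not tested. Sex, mother and dissection cannot be told apart.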

How the results depend on the processing

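The number of members and of wider FGF list genes past an adjusted p of 0.05 was 0 in each alternative run, and that of all autosomal genes was 0 except in females alone, where it was 10 with 1188 at an unadjusted p under 0.05. With the replicate block the counts were also 0, with 307 genes at an unadjusted p under 0.05 against 327. Same-numbered libraries had correlations of deviations of -0.03, 0.17 and -0.17, and not every library correlated best with its own number. These correlations cannot show whether embryos were paired by design, and the paper describes them as somite-paired. The median log2 fold change of the members was 0.26 in females alone against 0.02, and -0.01 to 0.20 when 1 library was left out.

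Log2 fold changes near 0 changed sign with single libraries. With 1 library left out they ranged from -0.0033 to 0.46 for Fgf3, -0.44 to 0.46 for Fgf4, -0.14 to 0.20 for Fgf8, -0.12 to 0.14 for Fgf17, -0.0018 to 0.16 for Fgfr1, -0.12 to 0.19 for Dusp6, -0.021 to 0.046 for Spry2 and -0.20 to 0.31 for Etv4. In females alone they were 0.51 for Fgf4, 0.26 for Fgf8 and -0.10 for Dusp6. Etv4 was at -9.6e-05 with median-ratio scaling, -0.00011 and -0.0011 with pseudocounts of 0.1 and 1 RPKM and -0.054 with voom, against 7.0e-06. Fgf18 and Spry4 kept their sign.

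For the difference between the male pair and females, 1 member was called, against 3 without the filter, 2 with voom and 0 to 5 with 1 female left out (0 without either WT female, 5 without MommeD43 replicate 2, 4 without MommeD43 replicate 3). Over all genes 37 were called, against 114, 121 and 5 to 556. The difference for Spry2 ranged from -0.12 to 0.013. The fits without a female, the TMM scaling and the counts over all genes were added after seeing the data. No male could be left out of this comparison. The cause of these changes was not tested. Depth limits Fgf18 most, with 22 to 113 reads per library.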
